A study of Homo sapiens with 9 samples.

Results

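Transcripts of the semaphorin, plexin, neuropilin, Eph receptor and ephrin families were followed in MCF-10A, a human cell line from breast epithelium that forms no tumours and is in common use. The families were chosen with earlier results of these data known. Within them 52 genes were taken by name alone, as rows of the array with a single gene symbol of these families and no antisense RNA, out of 22411 genes measured. They comprise 20 semaphorins, 9 plexins, 2 neuropilins, 9 EPHA and 4 EPHB receptors, 5 ephrin-A and 3 ephrin-B ligands, with 1 row each. EPHB2 was not analysed here, nor was the read-through transcript that joins EFNA4 to its neighbour EFNA3.

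RNA was hybridised to 9 whole-transcript arrays, 3 for each of 3 groups of cells with a Tet-on expression system: doxycycline with the vector control, with D319N ERK2 or with Y261A ERK2, for 7 days. All groups had the same medium, with horse serum, epidermal growth factor at 20 ng/ml, insulin, hydrocortisone and cholera toxin, so the growth factor that drives the ERK cascade was present throughout. ERK2 is a mitogen-activated protein kinase, activated by MEK downstream of RAS and RAF; D319N lies in its common docking domain, which binds D motifs of partners, and Y261A in the pocket that binds DEF motifs of substrates. The study asks which transcripts depend on ERK2 and on these docking sites. No cells with wild-type ERK2 and no level of ERK2 itself were analysed here, and no label states that replicates came from separate cultures or that a line was a single clone. The p-values therefore reflect the spread among these arrays alone, which may be technical.

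Signals are RMA values in log2 units, so a difference of 1 is 2-fold. A gene was called when limma's moderated test gave a Benjamini-Hochberg adjusted p under 0.05 over all 22411 genes. Correlations between replicates ran from 0.9946 to 0.9986 across genes, which are not independent of each other. Of 14 mammary epithelial markers measured, all lay above the mean of the background probe sets (4.85) in every group, as did 11 of 15 endothelial, 9 of 12 neuronal and Schwann cell and 8 of 14 leukocyte markers, so this mean separates the lists poorly. PTPRC, which defines leukocytes, read 2.97 in each group. In D319N cells 6 of the 14 epithelial markers fell, among them EPCAM (log2 difference -2.66) and KRT5 (-1.29). In Y261A cells none of the 14 was called by limma, but 9 passed an unadjusted p under 0.05, among them EPCAM (-0.66), KRT18 (-0.39), KRT5 (-0.35) and KRT14 (0.34). In D319N cells 3 of 13 fibroblast markers rose, POSTN (2.81), DCN (2.42) and FAP (1.67); DCN (0.56) and FAP (0.47) also rose in Y261A cells. The summed signal of the epithelial list was 14.35 to 14.41 on the log2 scale in vector, 14.17 to 14.31 in Y261A and 13.81 to 13.99 in D319N arrays, and that of the fibroblast list 9.92 to 9.93, 9.94 to 10.00 and 10.43 to 10.50. Endothelial markers were called in no comparison (0 of 15 in limma, with 0 at an unadjusted p under 0.05 in either mutant against vector and 3 between the mutants). Of 12 neuronal and Schwann cell markers, MAP2 rose by 0.29 and MBP fell by 0.17 in D319N against vector, and GAP43 was lower in D319N than in Y261A cells (-0.36). Of 14 leukocyte markers, LAPTM5 fell in D319N (-0.86) and in Y261A cells (-0.68). The part of these shifts in the results below was not tested, and in bulk RNA a change in the number of cells of a kind and a change in RNA per cell cannot be told apart.

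Semaphorins are secreted or membrane-bound guidance proteins that bind plexins, receptors whose cytoplasmic part acts on small GTPases. Secreted semaphorins of the SEMA3 kind mostly need a neuropilin as co-receptor, and neuropilins also bind vascular endothelial growth factors. Ephrins sit on the cell surface and bind Eph receptor tyrosine kinases on neighbouring cells, so that signals run into either cell; EFNA ligands are held by a lipid anchor and EFNB ligands span the membrane. In epithelia these systems are known for roles in adhesion, cell sorting and motility.

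In D319N cells 12 of the 52 genes rose and 5 fell against vector, while none was called in Y261A cells. The largest rises were those of the co-receptor NRP1 (3.05-fold), the transmembrane ligand EFNB2 (2.22-fold) and the secreted ligand SEMA3C (2.14-fold), followed by the plexins PLXNA2 (1.80-fold) and PLXNA3 (1.61-fold) and the membrane semaphorin SEMA6A (1.44-fold). The 5 that fell did so by 1.10 to 1.24-fold: SEMA4D, PLXNB1, SEMA3A, EPHA1 and EPHB4. The 17 called are 32.7% of the family genes, against 16.6% of all genes in the same comparison; 23.1% of the family genes were higher, against 8.93% of all genes, and 9.62% were lower, against 7.66%. The groups did not overlap in 23 (44.2%, against 32% of all genes). At least 2-fold were 3 of the 52, or 5.77%, against 0.87% of all genes. Among genes above the background mean in at least 1 group, 18 of 43 family genes were called, against 23.4% of all such genes. The median log2 difference of the 52 was -0.01, beside -0.03 over all genes.

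**Figure D1:**
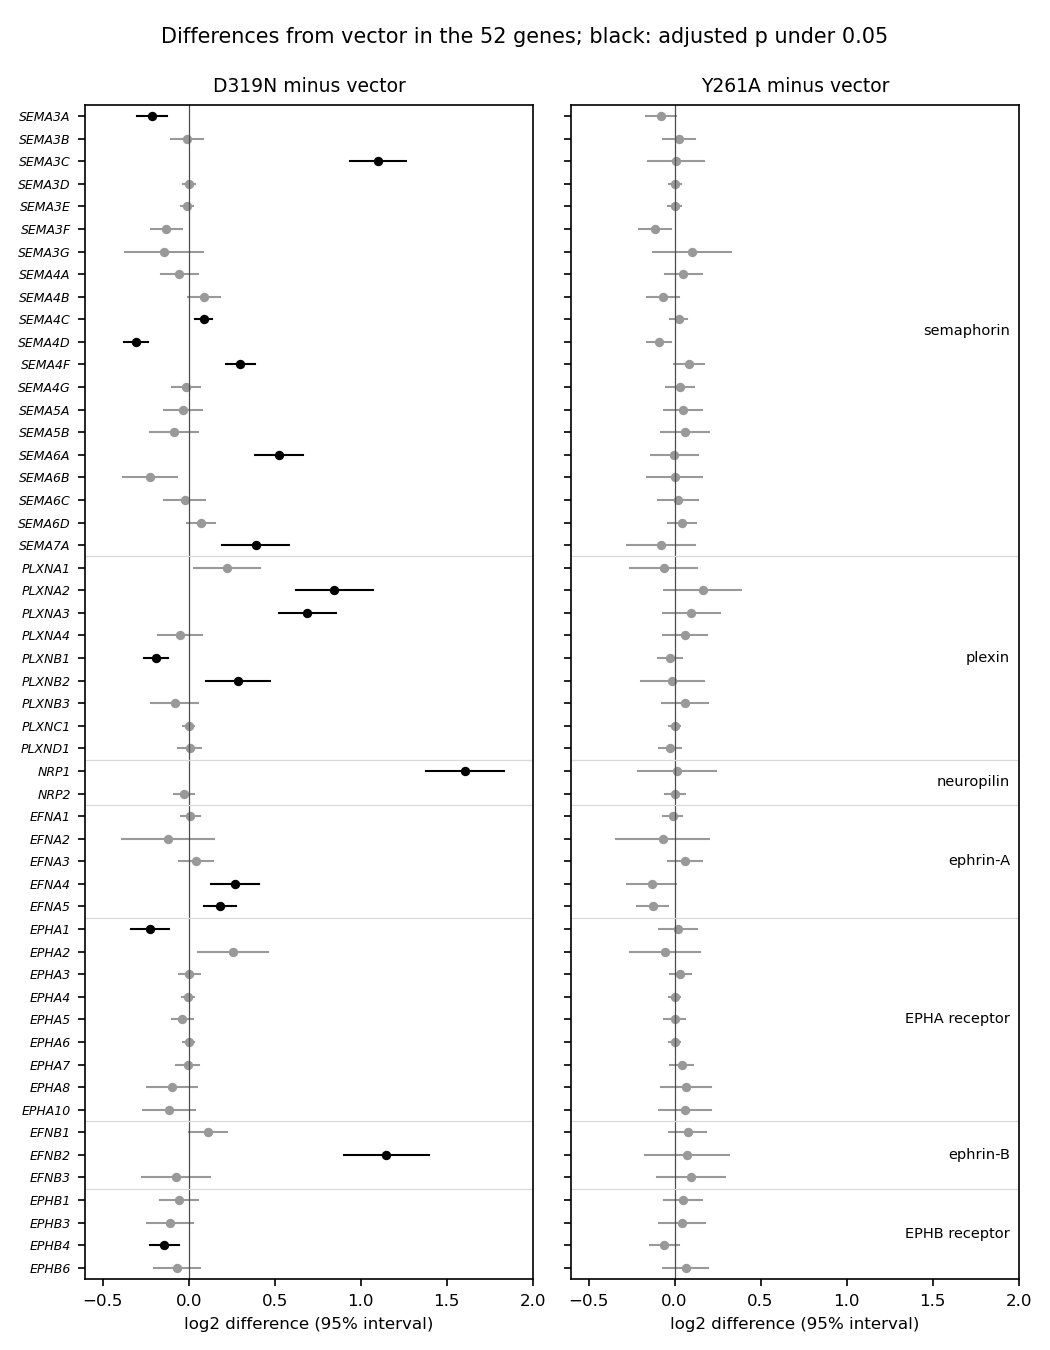
Log2 difference from vector (horizontal axis) of each of the 52 genes, ordered by family, with its 95% interval from limma, for D319N on the left and Y261A on the right; black points have an adjusted p under 0.05. NRP1, EFNB2 and SEMA3C lie beyond 1 in D319N cells, while every Y261A point lies between -0.13 and 0.16.

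Among ligands of the semaphorin family, SEMA3C changed most. SEMA3C encodes a secreted semaphorin that signals through neuropilins and plexins. Its signal was 7.28, 7.36 and 7.28 on the vector arrays, 7.40, 7.40 and 7.14 on the Y261A arrays and 8.43, 8.37 and 8.42 on the D319N arrays. The D319N arrays stood apart from the other 6 by about a full log2 unit, with less spread among them than in Y261A cells. The difference from vector was 1.10 ± 0.07 (SE; adjusted p = 8.20e-05, limma), and that from Y261A 1.09 ± 0.07 (adjusted p = 1.47e-04).

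SEMA6A, a transmembrane semaphorin that binds PLXNA2 and PLXNA4, read 5.01, 5.09 and 5.12 in vector, 5.08, 5.10 and 5.04 in Y261A and 5.61, 5.48 and 5.71 in D319N cells. The groups of D319N and vector did not overlap, and the vector level is close to the background mean. The rise was 0.53 ± 0.06 (adjusted p = 0.00105, limma). Smaller rises were those of SEMA7A, a lipid-anchored semaphorin that binds PLXNC1 and beta1 integrins (0.39 ± 0.08, adjusted p = 0.0184), SEMA4F (0.30 ± 0.04, adjusted p = 0.00152) and SEMA4C, a ligand of PLXNB2 (0.09 ± 0.02, adjusted p = 0.0271).

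SEMA4D and SEMA3A fell. SEMA4D, the ligand of PLXNB1, read 6.60, 6.66 and 6.63 in vector, 6.55, 6.53 and 6.53 in Y261A and 6.36, 6.36 and 6.26 in D319N cells, so that the groups lay in this order with no overlap. The fall in D319N was 0.31 on the log2 scale (-0.31 ± 0.03, adjusted p = 5.81e-04), and D319N was also lower than Y261A (-0.21 ± 0.03, adjusted p = 0.00389). SEMA3A, a secreted ligand of NRP1, went opposite to SEMA3C, from 5.42, 5.40 and 5.41 in vector to 5.28, 5.12 and 5.20 in D319N cells (-0.21 ± 0.04, adjusted p = 0.00775). Its level is not far above the background mean. The SEMA3A call was lost with median centring, with quantile normalization and when the spread of genes with identical values was raised. Y261A read 5.33 on all 3 arrays, between the other groups, and its difference from vector did not pass (-0.08, 95% interval -0.17 to 0.01). The other 13 semaphorins did not pass against vector. SEMA4B passed only between the mutants, higher in D319N by 0.16 ± 0.04 (adjusted p = 0.0408), a call kept in 1 of 9 fits that left out an array. SEMA3D, SEMA3E and SEMA6D lay below the background mean in every group.

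Of the semaphorin receptors, NRP1 changed most and NRP2 was level. NRP1, the co-receptor of SEMA3A and SEMA3C and a receptor of VEGFA, read 6.50, 6.49 and 6.66 in vector, 6.68, 6.58 and 6.43 in Y261A and 8.21, 7.99 and 8.28 in D319N cells. All 3 D319N arrays lay more than 1 log2 unit above the other 6, which intermingled. The difference was 1.61 ± 0.10 from vector (adjusted p = 6.70e-05, limma) and 1.60 ± 0.10 from Y261A (adjusted p = 1.23e-04). NRP2, the second neuropilin, had a signal of 6.43 on 8 of the 9 arrays and 6.34 on D319N replicate 2, a difference from vector of -0.03 (95% interval -0.09 to 0.03).

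PLXNA2, a receptor of SEMA6A and, with a neuropilin, of SEMA3 ligands, read 8.24, 8.31 and 8.42 in vector, 8.56, 8.53 and 8.36 in Y261A and 9.177, 8.999 and 9.332 in D319N cells. PLXNA3, which also acts with neuropilins, read 7.33, 7.40 and 7.38, then 7.50, 7.40 and 7.49, then 8.06, 7.91 and 8.20 in the same order of groups. For both genes every D319N array was above every other array, while Y261A overlapped vector in PLXNA2 and lay just above it in PLXNA3, a difference that did not pass (0.10, 95% interval -0.07 to 0.26). Rises over vector were 0.85 ± 0.09 for PLXNA2 (adjusted p = 0.00101) and 0.69 ± 0.07 for PLXNA3 (adjusted p = 6.90e-04), and over Y261A 0.69 ± 0.09 (adjusted p = 0.00357) and 0.59 ± 0.07 (adjusted p = 0.00199).

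The plexins of the B kind went different ways. PLXNB1, the receptor of SEMA4D, read 7.64, 7.62 and 7.69 in vector and 7.45, 7.43 and 7.50 in D319N cells. The fall was 0.19 on the log2 scale (-0.19 ± 0.03, adjusted p = 0.00519), so that ligand and receptor of this pair were both lower. The PLXNB1 call was lost when each array was centred on its median, and when the spread of genes with identical values was raised. PLXNB2 was higher by 0.29 ± 0.08 (adjusted p = 0.0475), a call kept in 1 of 9 fits that left out an array. PLXNA1 did not pass (0.22, 95% interval 0.03 to 0.41, adjusted p = 0.123), nor did PLXND1, a receptor for SEMA3C and SEMA3E, whose interval was -0.06 to 0.07. PLXNC1, the receptor of SEMA7A, lay below the background mean with the same value of 3.82 on every array.

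**Figure D2:**
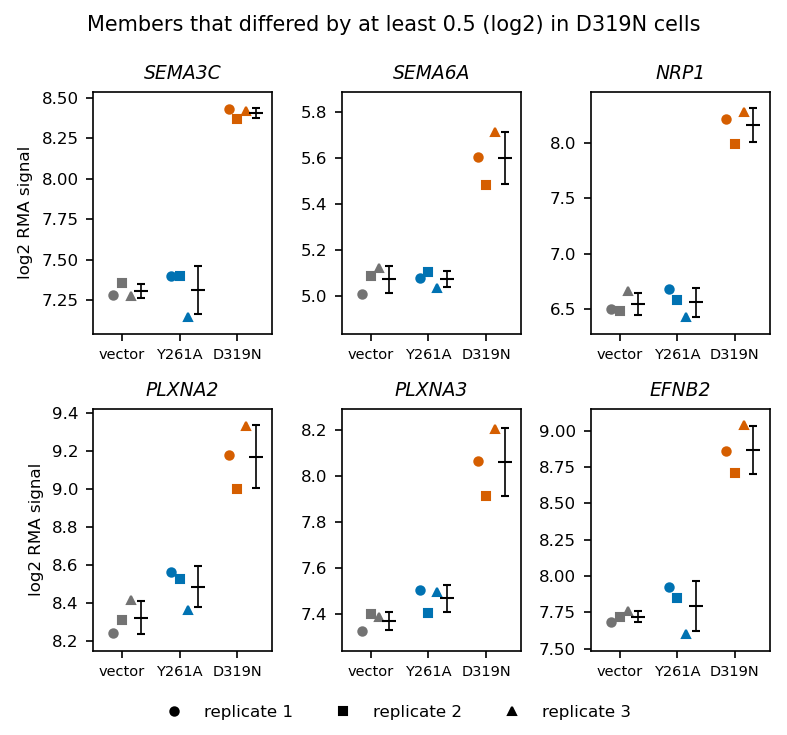
Log2 RMA signal (vertical axes, scaled for each gene) on each array for the 6 genes that rose by at least 0.5 in D319N cells; symbols mark the replicate, and the bar beside each group is its mean ± SD (n = 3). D319N arrays lie above all others in each panel, and D319N replicate 2 (square) is the lowest of its group.

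Among ephrins, EFNB2 changed most. EFNB2, the transmembrane ligand of EPHB4, read 7.68, 7.71 and 7.76 in vector, 7.93, 7.85 and 7.60 in Y261A and 8.86, 8.71 and 9.04 in D319N cells. Again the D319N arrays stood clear of the rest, while Y261A values fell on either side of vector. The difference from vector was 1.15 ± 0.10 (adjusted p = 4.24e-04, limma), and from Y261A 1.08 ± 0.10 (adjusted p = 8.32e-04). Its receptor EPHB4 read 7.63, 7.60 and 7.62 in vector, 7.56 on each Y261A array and 7.46, 7.41 and 7.56 in D319N cells. EPHB4 thus moved opposite to its ligand and by far less (-0.14 ± 0.04, adjusted p = 0.0373), a call kept in 1 of 9 fits that left out an array. EFNB1 (0.11, adjusted p = 0.163) and EFNB3 did not pass.

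Both EFNA ligands that changed were raised in D319N cells. EFNA4 read 6.96, 6.95 and 6.96 in vector, 6.88, 6.90 and 6.71 in Y261A and 7.21, 7.16 and 7.32 in D319N cells. EFNA5 read 8.23, 8.23 and 8.19, then 8.15, 8.10 and 8.02, then 8.38, 8.36 and 8.45. In both the 3 groups did not overlap, with Y261A lowest and D319N highest. Against vector the rises were 0.27 ± 0.06 for EFNA4 (adjusted p = 0.0212) and 0.18 ± 0.04 for EFNA5 (adjusted p = 0.0173), kept in 4 and 5 of 9 fits that left out an array. Between the mutants the differences were larger, 0.40 ± 0.06 (adjusted p = 0.00491) and 0.31 ± 0.04 (adjusted p = 0.00237), and were called in all 9 such fits, while Y261A against vector did not pass (-0.13 for each, adjusted p = 0.498 and 0.319).

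Receptors of the EPHA kind changed little. EPHA1 read 6.14, 6.19 and 6.15 in vector and 5.934, 6.005 and 5.872 in D319N cells, a difference of -0.23 ± 0.05 (adjusted p = 0.0155). EPHA2, a receptor of EFNA ligands known from breast epithelial cells, read 8.62, 8.60 and 8.67 in vector, 8.62, 8.66 and 8.44 in Y261A and 8.91, 8.72 and 9.03 in D319N cells. Its D319N arrays all lay above the others, but the difference did not pass (0.26 ± 0.09, 95% interval 0.05 to 0.46, adjusted p = 0.0951). EPHA3, EPHA4, EPHA5, EPHA6 and EPHA7 lay below the background mean in every group. The background probe sets themselves range from 1.63 to 12.16 with their GC content, so this mean is a rough guide.

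**Figure D3:**
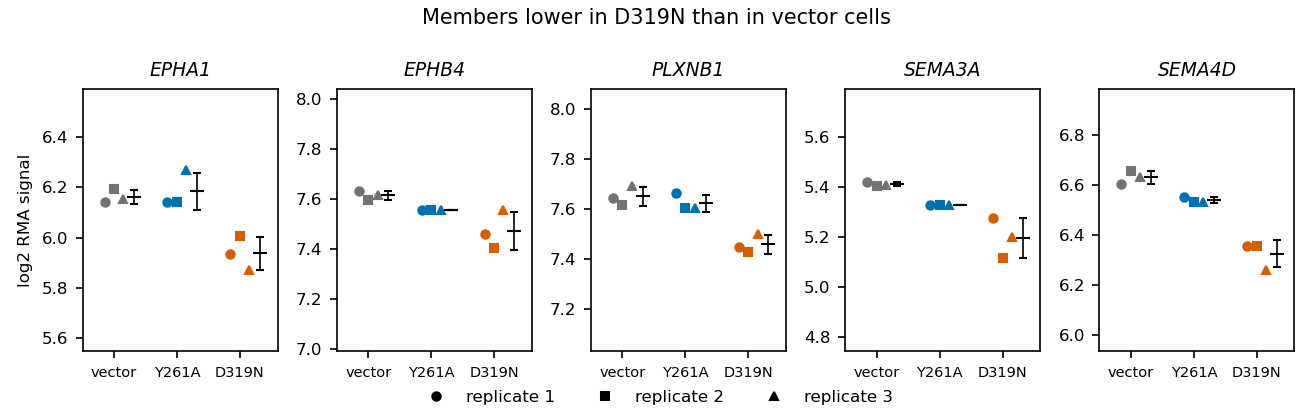
Log2 RMA signal on each array (vertical axes span at least 1 log2 unit) for the 5 genes that were lower in D319N than in vector cells, with the mean ± SD (n = 3) beside each group. The D319N arrays lie below the vector arrays in every panel, and the steps are of 0.14 to 0.31, below the 0.53 to 1.61 of the 6 genes that rose by at least 0.5.

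The promoters of the raised genes are shown as a description of their letters. ERK signalling is known to act through AP-1 and ETS transcription factors, but whether these act on the raised genes was not tested. Of the 6 genes raised by at least 0.5, RefSeq's promoter table for GRCh38.p14 held SEMA3C, EFNB2, PLXNA2 and PLXNA3, and 46 of all 52. NRP1 and SEMA6A are named only. Each line gives the 250 bases before the listed start, 5′ to 3′ on the gene's strand. Capitals mark the letters searched for on both strands: GGGCGG (the GC box), CAGGTG (an E-box that ZEB and SNAI factors bind), TGANTCA (AP-1) and CCGGAA (ETS), and no marked stretches overlap.
SEMA3C, chr7:80922390-80922639, minus strand: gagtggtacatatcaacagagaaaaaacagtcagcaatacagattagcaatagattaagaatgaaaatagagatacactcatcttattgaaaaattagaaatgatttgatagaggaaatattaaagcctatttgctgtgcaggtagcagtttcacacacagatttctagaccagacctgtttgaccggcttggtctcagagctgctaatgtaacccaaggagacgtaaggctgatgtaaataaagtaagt
EFNB2, chr13:106535663-106535912, minus strand: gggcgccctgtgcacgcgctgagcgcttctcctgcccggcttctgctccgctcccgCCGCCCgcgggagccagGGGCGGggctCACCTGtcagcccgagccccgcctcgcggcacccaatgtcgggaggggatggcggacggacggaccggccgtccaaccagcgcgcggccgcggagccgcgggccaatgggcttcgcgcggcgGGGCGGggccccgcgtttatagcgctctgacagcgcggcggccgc
PLXNA2, chr1:208244385-208244634, minus strand: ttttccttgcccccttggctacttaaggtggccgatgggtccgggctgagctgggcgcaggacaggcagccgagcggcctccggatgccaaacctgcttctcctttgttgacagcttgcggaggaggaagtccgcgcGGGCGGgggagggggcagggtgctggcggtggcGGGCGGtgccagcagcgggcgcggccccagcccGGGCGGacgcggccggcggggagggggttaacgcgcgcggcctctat
PLXNA3, chrX:154458031-154458280, plus strand: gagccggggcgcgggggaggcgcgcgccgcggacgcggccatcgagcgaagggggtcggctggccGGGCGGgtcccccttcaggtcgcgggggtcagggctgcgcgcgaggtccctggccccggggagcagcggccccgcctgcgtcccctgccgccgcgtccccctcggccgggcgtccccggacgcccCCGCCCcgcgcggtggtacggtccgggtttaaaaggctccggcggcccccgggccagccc

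These windows differed in makeup. The SEMA3C window was 36.4% G or C and held none of the 4 motifs, though the start listed by RefSeq may not be the one used in these cells; 7.54% of the 27305 promoters in the table had a lower GC content. EFNB2, PLXNA2 and PLXNA3 were GC-rich, at 78.4%, 72.4% and 82.8% against a median of 58.0%, with 3, 3 and 2 GC boxes; EFNB2 also held an E-box 167 bases before the start. AP-1 letters stood in 0 of the 4 windows shown, and ETS letters in 0. GC boxes stood in 36 of 46 family promoters, against 42.3% of all, E-boxes in 8 of 46 against 17.5%, ETS letters in 3 of 46 against 14.8% and AP-1 letters in 1 of 46 against 6.60%. A match is a description of letters, and the lack of a match says only that they are not in this window.

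Between the mutants, 15 of the 52 genes differed (28.8%, against 14.6% of all genes), 12 higher (23.1% against 9.92%) and 3 lower (5.77% against 4.72%) in D319N. The groups did not overlap in 20 (38.5% against 28.1%), and 3 differed at least 2-fold (5.77% against 0.656%). Among the 43 genes above the background mean, 19 were called, against 21.6%. This comparison tests the difference of the mutants directly. Of the family genes 14 passed against vector and against Y261A in the same direction, or 26.9% against 11.7% of all genes; 11 were higher (21.2% against 7.88%) and 3 lower (5.77% against 3.79%). The comparisons share the D319N arrays. The 11 were NRP1, SEMA3C, EFNB2, PLXNA2, PLXNA3, SEMA6A, SEMA4F, SEMA7A, EFNA4, EFNA5 and PLXNB2, and the 3 were SEMA4D, PLXNB1 and EPHA1. SEMA4C, SEMA3A and EPHB4 passed against vector and not against Y261A. Of the 15 calls between the mutants, 8 were kept under every alternative run. PLXNB2, SEMA4B, SEMA7A, SEMA4D, SEMA4F, PLXNB1 and EPHA1 each lost that call in at least 1 alternative, and PLXNB2 kept it in 1 of 9 fits that left out an array.

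In Y261A cells no family gene was called by limma, against 0.353% of all genes, and 0 of 43 above the background mean, against 0.629%. At an unadjusted p under 0.05 there were 3, EFNA5 (-0.13), SEMA4D (-0.09) and SEMA3F (-0.11), all lower, or 5.77% against 10.4% of all genes. With array weights 2 were called, PLXNA2 (0.25) and SEMA4F (0.10), where 4.41% of all genes were. The groups did not overlap in 11 of 52 genes, or 21.2%, against 13.4% of all genes: 4 were higher (7.69% against 4.11%) and 7 lower (13.5% against 9.24%). Every difference had a 95% interval within -0.34 to 0.38. For NRP1 it was -0.22 to 0.24, for SEMA3C -0.15 to 0.17 and for EFNB2 -0.17 to 0.32, so a change of 2-fold in these genes lies outside the interval, while a small one does not.

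Of the 34 genes called in no comparison, 5 stayed within 0.05 of the vector mean on all 9 arrays, EPHA4, EPHA6, PLXNC1, SEMA3D and SEMA3E. EFNB1, EPHA2, PLXNA1, SEMA3F and SEMA6B had intervals against vector that leave out 0 in D319N cells without passing the adjusted threshold. In 25 of the 34 the vector arrays agreed to within 0.05, and many of these moved with single arrays. In 16 of these 25 Y261A replicate 3 lay more than 0.05 above the vector mean, by up to 0.30, and in none was it as far below. In 10 of the 16, EPHA8, EPHA10, EPHB1, EPHB3, EPHB6, PLXNB3, SEMA3G, SEMA4A, SEMA5B and SEMA6B, D319N replicates 1 and 3 lay more than 0.05 below it, by up to 0.31. D319N replicate 2 was within 0.05 of the vector mean in 22 of the 25. These genes were named after their values were seen. In all 12 raised genes D319N replicate 2 was the lowest of its group, as it was in 3 of the 5 lowered genes. How often this held over all genes was not counted. Identical values on at least 2 arrays of a group occurred in 39 of the 52 genes, and in 14207 of all 22411 genes. The spread of such genes may be understated. The median polish step of RMA is able to give equal summaries on different arrays.

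**Figure D4:**
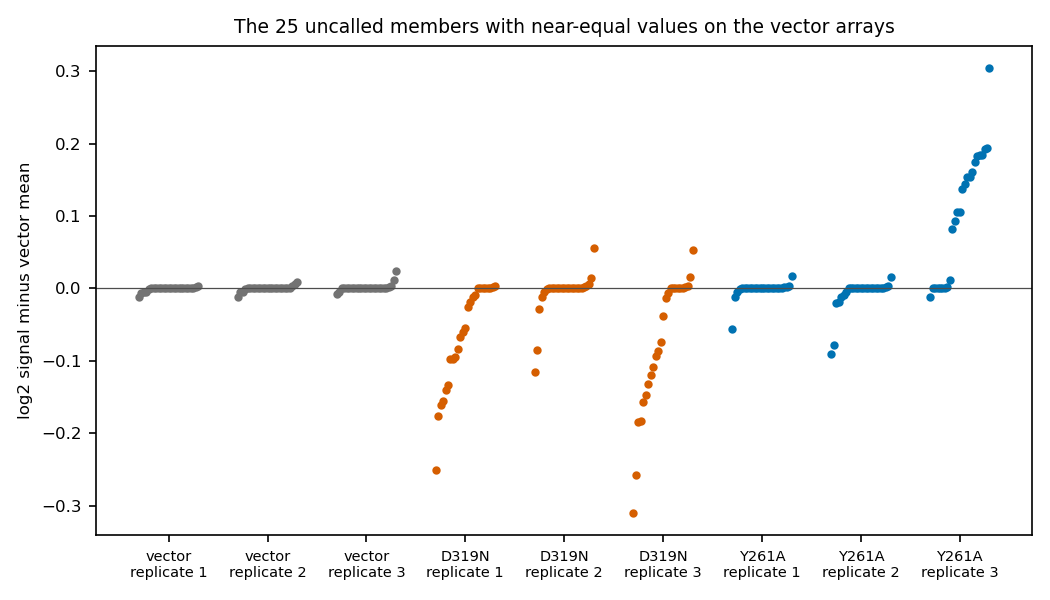
Log2 signal minus the vector mean (vertical axis) on each of the 9 arrays for the 25 uncalled genes whose vector arrays agree within 0.05, sorted within each array. D319N replicates 1 and 3 reach down to -0.25 and -0.31 and Y261A replicate 3 up to 0.30, while D319N replicate 2 stays near 0 for most genes.

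Partners and effectors of these receptors gave the following counts, from lists chosen with earlier results of these data known. Of 43 semaphorin co-receptors and plexin effectors measured, 7 rose (16.3% against 8.93% of all genes) and 1 fell (2.33% against 7.66%) in D319N against vector. The median was 0.05, and the 18.6% called in either direction is near the 16.6% of all genes. None was called in Y261A (4 at an unadjusted p under 0.05 in limma, or 9.30% against 10.4% of all genes). These 4 were ITGA5 (0.43, adjusted p = 0.0684, limma), VEGFC (0.28), RND3 (0.16) and CFL1 (-0.13). In D319N against vector the smallest p-values included those of ITGA5 (2.53 ± 0.07, adjusted p = 2.46e-06, limma) and ITGB1 (0.65 ± 0.05, adjusted p = 2.32e-04). Both are integrin subunits, and ITGB1 takes part in SEMA7A binding. With them were VEGFC, a growth factor that binds neuropilins (1.70 ± 0.08, adjusted p = 2.55e-05), and RRAS, a small GTPase on which plexins act (2.30-fold, adjusted p = 3.64e-04). Like NRP1, VEGFC rose in D319N cells, to 7.75 ± 0.18 (SD, n = 3) from 6.05 ± 0.06 in vector, with 6.33 ± 0.03 in Y261A. In Y261A cells the difference from vector was 0.28 for VEGFC (adjusted p = 0.313, limma) and 0.01 for NRP1. The other rises in D319N against vector were those of MICAL2 (0.88), MICAL1 (0.24) and VEGFA (0.21). LIMK2, a kinase of cofilin, was the member that fell (-0.37). The receptor kinase MET, a partner of PLXNB1, did not pass (0.10, adjusted p = 0.247).

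Of 38 Eph and ephrin effectors, 9 rose (23.7% against 8.93% of all genes) and 2 fell (5.26% against 7.66%) in D319N against vector (median 0.01). None was called in Y261A, against 0.353% of all genes (3 at an unadjusted p under 0.05 in limma, or 7.89% against 10.4%). These 3 were CBLB (0.27, adjusted p = 0.0707, limma), CBL (-0.23) and SDCBP (-0.12). In D319N cells CBLB, a ubiquitin ligase of receptor kinases, rose by 1.32 ± 0.04 (adjusted p = 5.62e-06) and the adaptor GRB10 by 0.30 ± 0.03. The regulatory PI3-kinase subunit PIK3R1 rose by 0.57 ± 0.07 and NCK2, an adaptor of ephrin-B signalling, by 0.39 ± 0.05. PTPN13 (-0.25), a phosphatase, and PICK1 (-0.20), a PDZ-domain protein, fell. Of 27 further guidance ligands and receptors, 5 rose (18.5% against 8.93% of all genes) and 2 fell (7.41% against 7.66%), with a median of -0.03. NTN4, a netrin of basement membranes, was 2.84-fold higher (adjusted p = 1.30e-05, limma). The other rises were those of FLRT3 (0.78), the SLIT receptor ROBO1 (0.48), NEO1 (0.47) and FLRT2 (0.38). None was called in Y261A (3 at an unadjusted p under 0.05 in limma, or 11.1% against 10.4% of all genes). These 3 were FLRT3 (0.27), FLRT2 (0.26) and NTN4 (0.20), and FLRT2 did not pass between the mutants (0.12, adjusted p = 0.177, limma). In D319N cells the SLIT2 ligand (-0.25) and the netrin receptor UNC5B (-0.35) fell. Between the mutants, 9, 10 and 4 members of the 3 lists were higher in D319N (20.9%, 26.3% and 14.8%, against 9.92% of all genes) and 1 of each lower (2.33%, 2.63% and 3.70%, against 4.72%). The medians stand beside -0.03 over all genes against vector.

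**Figure D5:**
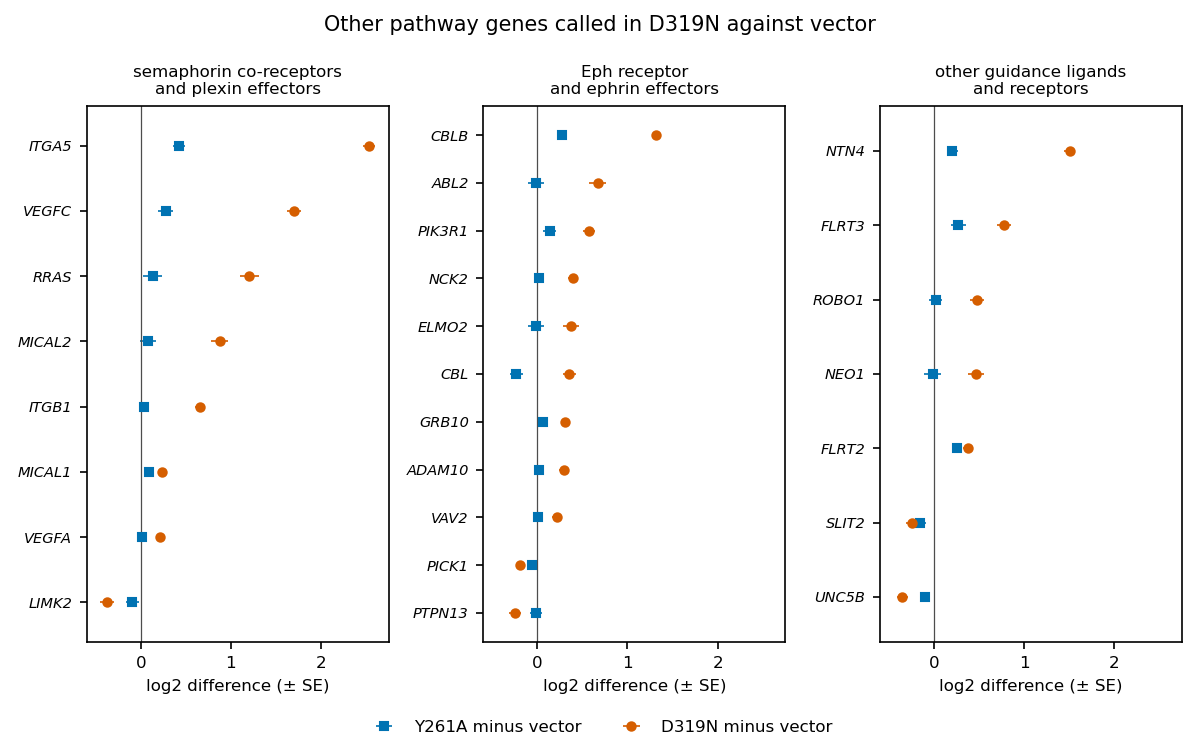
Log2 difference from vector ± SE (horizontal axis) of the effectors, partners and other guidance genes called in D319N against vector, for D319N (circles) and Y261A (squares). ITGA5, VEGFC, RRAS, CBLB and NTN4 exceed 1 in D319N cells, and their Y261A values lie below 0.5.

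Calls differed in how far they rest on single arrays. NRP1, SEMA3C, EFNB2, PLXNA2, PLXNA3, SEMA6A, SEMA4D and SEMA4F passed against vector under every alternative run. The count of 17 was 11, 10 and 11 without vector replicate 1, 2 or 3, where 11.6%, 11.3% and 14% of all genes were called. It was 30 of 52 (against 35.6% of all genes) when D319N replicate 2 and Y261A replicate 3 were left out. Of these 30, 15 were higher and 15 lower in D319N cells, so the tilt of the main fit (12 higher, 5 lower) was not seen there.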

How the data were processed

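The deposited table holds log2 values that the authors obtained by RMA in Expression Console 1.4, as the submitters' processing notes name them. That method subtracts background, makes the arrays' probe distributions alike by quantiles, and summarises the probes of a row by median polish. No probe coordinates were used here. No counts lie behind the values, so the number of arrays limits the precision.

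From the deposited table of 70523 rows, 1529 control rows were set aside and 23781 rows with 1 gene symbol kept. Outdated symbols (306) were updated through synonyms in RefSeq's gene table for GRCh38.p14. The row with the highest mean stood for each of 22411 genes. The 3 groups were fitted together on 9 arrays with limma 3.58.1 in R 4.3.3 (6 residual degrees of freedom), and p-values were adjusted over all genes within a comparison. The code was tested on simulated data. The genes followed and the lists were chosen with earlier results of these data known. Every family gene called is named, with its value on each array if it differed by at least 0.5. Values on each array are also given for some partners of these genes, and for other family genes chosen after their values were seen. Up to 4 called genes of each list with the smallest p are named, and others named were chosen after their values were seen. Alternatives left out arrays, blocked on replicate number, renormalized, filtered dim genes, changed the variance model or the rows.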

Additional observations from a re-analysis of the deposited data

How the results depend on the processing

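The alternatives gave 1080 values for the named family genes, of which none changed the direction of a call, 92 lost a call and 13 gained one. Leaving out each array in turn gave 10 to 20 called family genes in D319N against vector (11.3% to 20.4% of all genes), 12 to 21 in D319N against Y261A (8.66% to 23.7%) and 0 throughout in Y261A against vector (0.0402% to 0.593%). Without D319N replicate 2 and Y261A replicate 3 the counts were 30 and 27 for D319N against vector and against Y261A, beside 35.6% and 27.9% of all genes. With array weights they were 34 and 34, beside 51.9% and 46.4% of all genes, and 2 for Y261A against vector, beside 4.41%. In D319N against vector, 15 genes were higher and 15 lower without the 2 arrays, and 15 higher and 19 lower with array weights. With the spread of tied genes raised to that of genes without ties, 10 were called in D319N against vector, beside 12.5%, and the causes of these shifts were not tested. Centring each array on its median, which moved the difference of all genes by 0.05 in D319N against vector, ended the calls of SEMA3A, PLXNB1, SEMA4C and EPHB4 against vector, while SEMA3A was also lost with quantile normalization. No label states whether the replicate numbers pair the arrays. Same-numbered arrays deviated from their group means with correlations of -0.45 to 0.21. These cannot decide the question, since deviations of whole arrays, as in D319N replicate 2 and Y261A replicate 3, enter them. With the replicate block the count was 12 for D319N against vector, 13 between the mutants and 0 for Y261A, beside 13.7%, 11.1% and 0.058% of all genes. EFNA4, EFNA5, SEMA7A, SEMA4C, EPHB4 and PLXNB2 lost their call against vector without any 1 of the vector arrays, and EPHA1 without vector replicate 2 or D319N replicate 1.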
